A study of Mus musculus with 7 samples.

Results

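The genes described here are 10 that β-catenin drives in hepatocytes around the central vein of the liver: Axin2, Rnf43, Znrf3, Notum, Lgr5, Sp5, Tbx3, Glul, Rhbg and Lect2. They were chosen by name, as genes whose array accession maps to these symbols, after values of these arrays had been seen, so that their differences between the groups are given as a description and not as a test. They make up 10 of 18031 genes tested. The 10 genes were read by 11 probes, Axin2 by 2 and the other 9 by 1 each, and all 10 were in the table tested.

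By its title the study asked what β-catenin activation does in the dermal sheath, the mesenchymal layer around the hair follicle. By their labels, the samples were cells of mouse dorsal skin at postnatal day 15, sorted for the YFP reporter and against CD34, alkaline phosphatase and integrin α8, with 10 ng of RNA amplified and read on a 1-colour array. The cΔex3 group, labelled as β-catenin activation, had 4 arrays from 6 mice, with 2 mice pooled on array 2 and 2 on array 3. The control group had 3 arrays from 4 mice, with 2 pooled on array 3. Both groups carried the YFP reporter. The strain, the Cre driver and the promoter behind the reporter are not given in the sources used here.

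Wnt proteins and R-spondins stop a complex of Axin, APC and kinases from marking β-catenin for destruction, and the β-catenin that escapes acts with TCF/LEF factors on DNA. Several of its targets feed back on the pathway, as inhibitors or as receptors. In liver the signal comes from endothelium of the central vein, and the hepatocytes next to it make glutamine from ammonium. Axin2, Rnf43, Znrf3, Notum, Lgr5 and Sp5 are targets in many tissues, whereas Lect2 is a product of hepatocytes.

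The RefSeq promoter table (GRCm38.p6, 250 bases before to 50 after a transcript start) held 5 of the 10 genes, in 6 windows, Rnf43 having 2. They were searched on both strands for the TCF/LEF core CTTTGA, whose reverse complement is TCAAAG, and for the longer CTTTGAT, which contains it. The shorter core was in 16% of 32851 promoter windows in the table and the longer one in 3.73%. Of the 5 genes, Sp5 and Lect2 held the core. Their windows are shown because they carry it, and that of Axin2 because it was the only one of the 10 genes with a higher mean on the cΔex3 arrays. Capitals mark the core, or its reverse complement.
Sp5, chr2:70474673-70474972, plus strand: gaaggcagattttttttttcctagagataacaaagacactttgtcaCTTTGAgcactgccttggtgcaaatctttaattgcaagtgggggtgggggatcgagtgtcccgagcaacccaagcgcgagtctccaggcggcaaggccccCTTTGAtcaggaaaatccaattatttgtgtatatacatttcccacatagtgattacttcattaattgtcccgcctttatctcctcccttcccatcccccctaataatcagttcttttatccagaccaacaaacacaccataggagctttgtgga
Lect2, chr13:56548489-56548788, minus strand: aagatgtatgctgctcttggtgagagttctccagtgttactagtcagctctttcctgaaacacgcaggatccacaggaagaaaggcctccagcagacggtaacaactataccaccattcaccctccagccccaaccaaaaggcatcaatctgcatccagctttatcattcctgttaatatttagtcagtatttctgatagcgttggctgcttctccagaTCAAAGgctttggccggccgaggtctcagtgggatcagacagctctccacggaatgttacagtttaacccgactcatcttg
Axin2, chr11:108920099-108920398, plus strand: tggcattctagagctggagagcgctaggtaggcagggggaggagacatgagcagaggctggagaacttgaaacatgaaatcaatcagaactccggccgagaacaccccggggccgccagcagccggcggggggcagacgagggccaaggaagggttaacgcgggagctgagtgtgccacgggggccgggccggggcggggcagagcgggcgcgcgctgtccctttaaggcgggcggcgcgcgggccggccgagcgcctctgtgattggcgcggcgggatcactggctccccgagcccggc
The Sp5 window had the core 2 times, with its first base at −204 and −104 from the transcript start, the nearer one being the longer form. The Lect2 window had it 1 time on the opposite strand, in the longer form, with the printed capitals beginning at −31. The Axin2 window had 0 and a GC content of 70%, against 45% for Sp5 and 48% for Lect2. The windows of Glul and Rnf43 also had 0. The start used for Axin2 and Lect2 lies inside the gene's own span in RefSeq. A match of letters is a description and shows no binding.

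Values below are log2 of the processed signal over the 75th percentile of its array, and differences are cΔex3 minus control on that scale, with the standard error (SE) of the limma fit. The 75th percentile was 1348 to 2160 signal units on the cΔex3 arrays and 756 to 907 on the control arrays, so that an equal signal reads lower on cΔex3 arrays. Between 69.0% and 82.7% of probes were above background on the cΔex3 arrays and between 69.3% and 71.5% on the control arrays, and 0 spots were saturated. The number of arrays, 4 and 3, limits the precision. Of all 18031 genes, limma called 24% higher and 29% lower on the cΔex3 arrays (adjusted p under 0.05). Groups without overlap between their arrays were found with cΔex3 higher for 26.1% of genes and with cΔex3 lower for 32.6%.

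The arrays did not match the labelled cell type alone. Hepatocyte markers had a summed relative signal of 163 to 285 on the cΔex3 arrays, against 7417 to 9675 on the control arrays, and 19 of 19 tested were called lower (limma), with a median difference of −9.03. Adipocyte markers summed to 971 to 2089 on the cΔex3 arrays, against 54.3 to 139 on the control arrays, and 12 of 12 were called higher (median 5.39). Dermal sheath and smooth muscle markers summed to 224 to 356 on the cΔex3 arrays, against 30.8 to 42.0 on the control arrays, and 10 of 12 were called higher (median 3.47, or 2.99 with Col11a1, not above background on any control array, at its bound). Whether samples or files were exchanged was not tested, and each difference is between arrays as labelled. The sort was on skin cells, and the part that these transcripts have in the values of the 10 genes was not tested. In bulk RNA, fewer cells of a type and less RNA per cell cannot be told apart. Ctnnb1, the β-catenin gene, had a difference of −0.02 ± 0.14 (SE; limma, adjusted p = 0.902). It had 1 probe whose exon is not known here, so that it checks nothing about the allele. The difference of Ctnnb1 moved with the scaling. It was 0.52, past the threshold, with normexp background correction followed by quantile normalisation. With quantile normalisation alone and in the authors' deposited series values it was also positive. Cd34, whose protein the sort excluded, was 4.84 ± 0.31 higher on the cΔex3 arrays (SE; limma, adjusted p = 4.49e-05).

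Against this background, 9 of the 10 genes had a lower mean on the cΔex3 arrays and 1, Axin2, a higher one. Between the groups, the arrays of 7 genes were lower on cΔex3 without overlap, those of 1 higher without overlap, and those of 2, Znrf3 and Tbx3, overlapped. The median difference of the 10 was −1.86, beside −0.08 over all genes tested. These counts follow from a choice made with the values known, and nothing is read from them. Before scaling, the mean processed signal was higher on the cΔex3 arrays for 4 of the 10 (Axin2, Znrf3, Tbx3 and Glul).

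**Figure D1:**
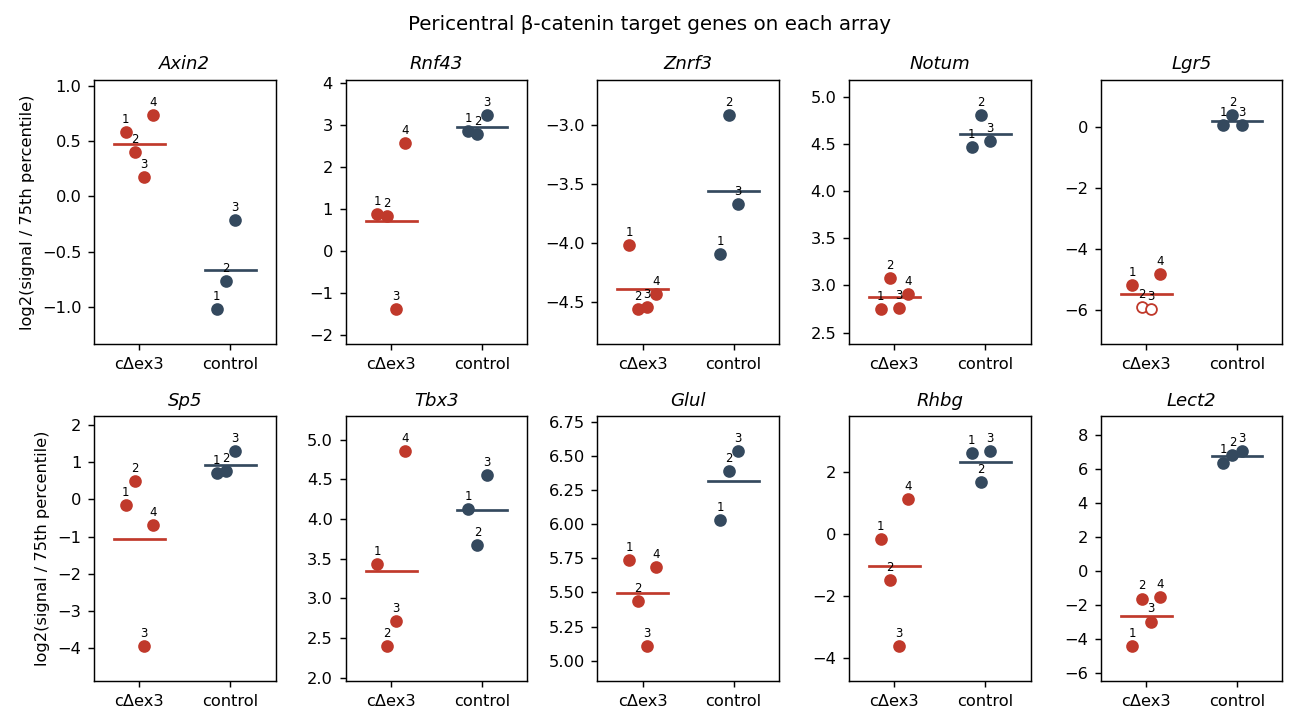
Level of each of the 10 genes on each array, as log2 of the processed signal over the array's 75th percentile (vertical axis, with its own range per gene), with cΔex3 arrays in red on the left and control arrays in blue on the right. Numbers are array numbers, bars are group means and open circles are signals not well above background; Axin2 is higher on all 4 cΔex3 arrays than on any control array, and Znrf3 and Tbx3 overlap between the groups.

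The feedback inhibitors differed in direction. Axin2 encodes a scaffold of the complex that destroys β-catenin and is widely used as a readout of the pathway. Its level was 0.58, 0.40, 0.17 and 0.74 on cΔex3 arrays 1 to 4, against −1.02, −0.76 and −0.21 on control arrays 1 to 3. All 4 cΔex3 arrays lay above all 3 control arrays, with means of 0.47 ± 0.24 (SD, n = 4) and −0.67 ± 0.41 (SD, n = 3), a difference of 1.14 ± 0.26 (SE) or 2.20-fold. Before scaling, its signal was 2773, 1780, 1869 and 3598 units on the cΔex3 arrays, against 376, 445 and 783 on the control arrays. The dimmer second probe of Axin2 read −3.29, −3.66, −3.99 and −3.30 on the cΔex3 arrays, against −4.40, −3.94 and −4.17 on the control arrays. That probe differed in the same direction, by 0.61 ± 0.25 (SE), but cΔex3 array 3 lay among the control arrays.

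Notum encodes an extracellular enzyme that removes the lipid Wnt proteins need to bind their receptors. It stood at 2.75, 3.08, 2.76 and 2.91 on the cΔex3 arrays, against 4.47, 4.81 and 4.53 on the control arrays. This was the tightest separation among the inhibitors, with SDs of 0.16 and 0.18 and a difference of −1.73 ± 0.20 (SE), 3.31-fold lower on the cΔex3 arrays. The size rested on the scaling: the difference was −1.18 with quantile normalisation and −1.22 in the authors' deposited series values.

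Rnf43 and Znrf3 encode related membrane ubiquitin ligases that clear frizzled receptors from the cell surface. Rnf43 was at 0.88, 0.83, −1.38 and 2.58 on the cΔex3 arrays, against 2.87, 2.79 and 3.25 on the control arrays. The cΔex3 arrays were all lower but spread over 3.96 log2 units, or 15.5-fold, and array 4 came close to the lowest control array, so that the difference of −2.24 ± 0.81 (SE) describes arrays that differ widely among themselves. Znrf3 was dim in both groups, at −4.01, −4.56, −4.54 and −4.43 on the cΔex3 arrays, against −4.09, −2.92 and −3.67 on the control arrays. The groups overlapped, the difference was −0.83 ± 0.31 (SE), and without control array 2, the brightest, it was −0.50.

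Lgr5 encodes a receptor for R-spondins, which protect frizzled receptors from the ubiquitin ligases above. It was at −5.18, −5.91, −5.97 and −4.83 on the cΔex3 arrays, against 0.08, 0.41 and 0.07 on the control arrays. Only cΔex3 arrays 1 and 4 read it above background, at 51.2 and 76.1 signal units, whereas the control arrays held 806, 1002 and 951 units. Of all probes, 81.6% and 82.7% were above background on cΔex3 arrays 1 and 4, against 69.0% and 70.8% on cΔex3 arrays 2 and 3. The measured difference was −5.66 ± 0.33 (SE), and it was −4.03 in the authors' deposited series values and −3.93 with normexp correction.

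Of the 2 transcription factors, Sp5 was lower without overlap and Tbx3 overlapped between the groups. Sp5 encodes a zinc finger factor that is a direct β-catenin target. It stood at −0.15, 0.50, −3.95 and −0.68 on the cΔex3 arrays, against 0.70, 0.76 and 1.29 on the control arrays. cΔex3 array 3 lay 4.45 log2 units, or 21.9-fold, below array 2 of the same group. The difference of −1.98 ± 0.99 (SE) was −1.02 without array 3, and there was still no overlap between the groups. Tbx3 encodes a T-box repressor. It was at 3.43, 2.40, 2.72 and 4.85 on the cΔex3 arrays, against 4.12, 3.67 and 4.56 on the control arrays. cΔex3 array 4 was above every control array and arrays 1, 2 and 3 below them, so that the difference of −0.77 ± 0.58 (SE) was −1.27 without cΔex3 array 4 and −0.45 without cΔex3 array 2. Over the arrays of 1 mouse only, 2 in each group, it turned to 0.25. Over all arrays, the Tbx3 difference was −0.21 with quantile normalisation and −0.27 in the authors' deposited series values.

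Glul encodes glutamine synthetase, which in liver is confined to the cells that border the central vein. Its level was 5.74, 5.44, 5.11 and 5.69 on the cΔex3 arrays, against 6.03, 6.39 and 6.53 on the control arrays. The groups did not overlap and differed by −0.82 ± 0.24 (SE), 1.77-fold lower on the cΔex3 arrays. Its direction depended on the scaling. Before scaling, the signal was 99199, 58492, 57209 and 111366 units on the cΔex3 arrays, against 49818, 63381 and 83991 on the control arrays, 1.24-fold higher by the means of the cΔex3 arrays. With quantile normalisation the difference was 0.01 and in the authors' deposited series values 0.05. The median difference of all genes moved too, and was −0.08 under the 75th percentile and 0.13 under quantile normalisation. Relative to that median, Glul was −0.74 under the 75th percentile, −0.12 under quantile normalisation and −0.06 in the authors' deposited series values.

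Rhbg encodes an ammonium transporter of the Rhesus protein family. It stood at −0.17, −1.49, −3.61 and 1.12 on the cΔex3 arrays, against 2.59, 1.66 and 2.66 on the control arrays. All 4 cΔex3 arrays were lower, but they spread over 4.73 log2 units, or 26.5-fold, the widest range of the 10 genes, with array 3 lowest and array 4 highest. The difference was −3.34 ± 1.02 (SE), and −2.48 without cΔex3 array 3.

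Lect2 encodes a chemotactic protein that hepatocytes secrete. It was at −4.40, −1.61, −2.97 and −1.50 on the cΔex3 arrays, against 6.40, 6.83 and 7.05 on the control arrays. The difference of −9.38 ± 0.70 (SE), or 666-fold lower on the cΔex3 arrays, was the largest of the 10 genes and close to the median of −9.03 of the hepatocyte markers.

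**Figure D2:**
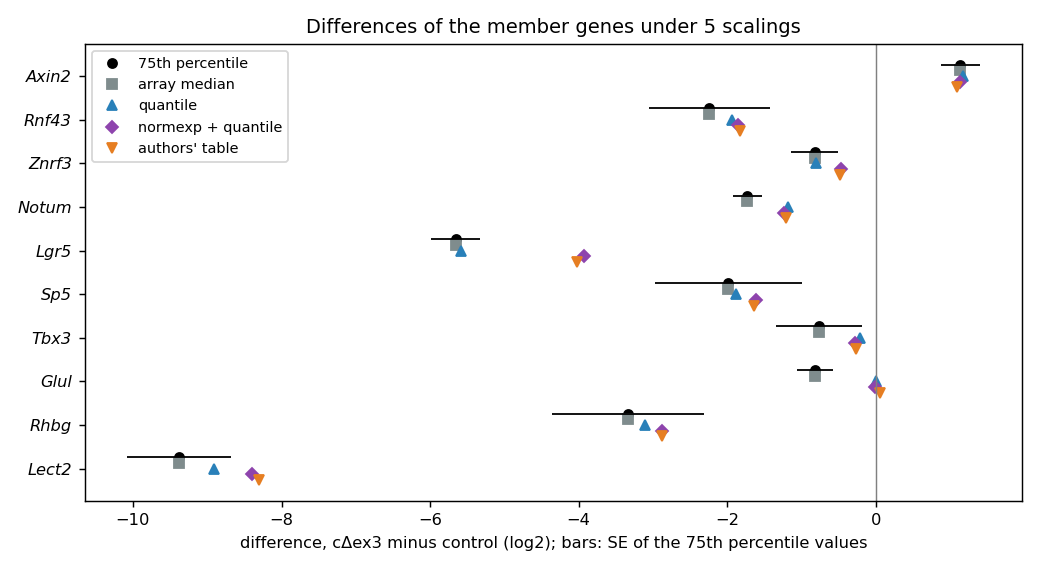
Difference between cΔex3 and control arrays (horizontal axis, log2) of each of the 10 genes under 5 scalings, with the SE drawn for the 75th percentile values. Axin2 stays to the right of 0 and 8 genes to the left under all 5, while Glul sits at −0.82 under the 75th percentile and near 0 under quantile normalisation, normexp and the authors' deposited values.

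By the file headers, control arrays 1 and 2 and cΔex3 array 1 lay in row 1 of the slide and the other 4 arrays in row 2. File names put 4 of the 7 arrays at another position than the headers do, and 2 of them in the other row. By the names each row holds 1 group, so that row and group could not be told apart. Within row 1 and row 2 of the headers the difference was 1.47 and 0.65 for Axin2, −1.95 and −2.58 for Rnf43, and −1.89 and −1.62 for Notum. It was −0.87 and −2.67 for Sp5, −0.47 and −1.12 for Glul, −2.29 and −3.98 for Rhbg, and −11.02 and −9.08 for Lect2. For each of the 10 genes the direction was the same in both rows.

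The spread between cΔex3 arrays was itself uneven. For 5 of the 10 genes (Rnf43, Sp5, Tbx3, Rhbg and Lect2) the SD over the cΔex3 arrays was above 1 log2 unit, which held for 13.4% of all genes tested. Over the control arrays it was above 1 for 0 of the 10 genes and for 5.1% of all genes. cΔex3 array 3 was the lowest of the 4 for 6 of the 10 genes, against 19.8% of all genes, and array 4 the highest for 6, against 29.0%. Marker lists of other cells differed between these arrays as well. Dermal papilla markers had a summed relative signal of 25.5, 20.7, 11.6 and 112 on cΔex3 arrays 1 to 4, against 9.63, 9.17 and 13.1 on control arrays 1 to 3. Follicle epithelium markers summed to 55.1, 53.4, 56.3 and 38.7 on the cΔex3 arrays, against 4.70, 5.04 and 6.02 on the control arrays. Endothelium markers summed to 114, 150, 145 and 70.3 on the cΔex3 arrays and macrophage markers to 97.6, 121, 103 and 47.2, both lowest on array 4. On the cΔex3 arrays the papilla sum was lowest on array 3 and highest on array 4, and the epithelium sum, carried largely by Cd34, the reverse. The median percentile of the epithelium list among all genes was 15.4, 23.5, 32.6 and 48.4 on cΔex3 arrays 1 to 4, highest on array 4. That of the papilla list was 48.1, 44.8, 35.0 and 48.0, lowest on array 3 but not highest on array 4. On the control arrays the papilla list stood at 48.9, 47.0 and 48.8, not below the cΔex3 arrays as its sum mostly was. A further 8 epithelial genes (Krt8, Krt18, Epcam, Cdh1, Cldn3, Cldn7, Crb3 and Esrp1) were added outside the lists, with earlier results of these data known. Krt8 and Crb3 are also among the 3 genes nearest in profile to Rnf43, given below, so that this set is not independent of Rnf43. They summed to 28.1, 44.4, 12.7 and 160 on the cΔex3 arrays, against 154, 147 and 188 on the control arrays. Krt18 was the brightest of them on each array, so that the sum follows it. Single genes of this set went different ways. Epcam was higher on every cΔex3 array, at −0.75, −0.54, −3.03 and 1.38, against −4.89, −4.67 and −3.44 on the control arrays. Krt8, Krt18 and Crb3 were lower on every cΔex3 array, and Cdh1, Cldn3, Cldn7 and Esrp1 overlapped between the groups. The papilla and epithelium list sums each hold a bright single gene. Cd34 in the epithelium list averaged 5.39 on the cΔex3 arrays and 0.56 on the control arrays, and Prom1 in the papilla list 4.05 and −0.52. Of the other epithelium genes, Trp63 was called higher, Lhx2 and Krt71 lower, and Krt5, Krt10, Krt14, Krt15 and Krt17 overlapped between the groups. The part of these cells in the values of the 10 genes was not tested.

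**Figure D3:**
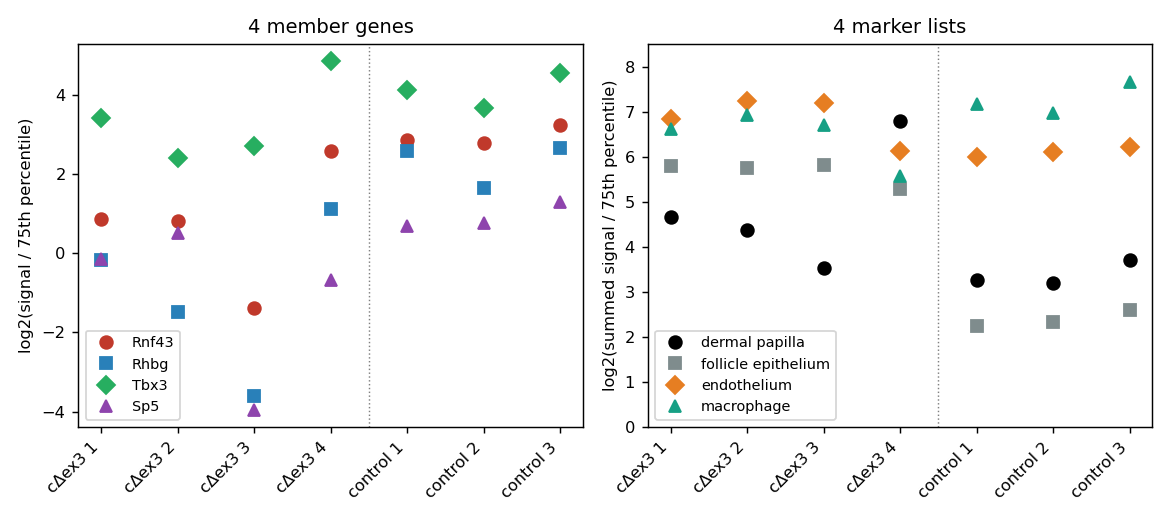
Level on each array of 4 of the 10 genes, as log2 of the processed signal over the array's 75th percentile (left panel), and summed signal of 4 marker lists over that percentile, as log2 (right panel). The dotted line parts the 4 cΔex3 arrays, on the left, from the 3 control arrays. cΔex3 array 3 holds the lowest value of its group for Rnf43, Rhbg, Sp5 and the dermal papilla sum. Array 4 holds the highest for Rnf43, Rhbg, Tbx3 and the dermal papilla sum, and the lowest for the follicle epithelium, endothelium and macrophage sums.

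Likeness of profile was measured as the root mean square distance, in log2 units over the 7 arrays, after centring each gene on its own mean. The genes nearest to Glul were Pcdhb8 (0.0869), Ears2 (0.113) and Ren1 (0.135). Those nearest to Lgr5 were Fads6 (0.228), Soat2 (0.240) and Asic5 (0.268), and those nearest to Axin2 were Ift74 (0.15), Inpp5e (0.159) and Tab1 (0.167). Rnf43 and Tbx3 were added after their values were seen. Rnf43 was nearest to Sel1l3 (0.0872), Crb3 (0.238) and Krt8 (0.257), and Tbx3 to Tmem200c (0.227), Nqo1 (0.246) and 1700084F23Rik (0.251).

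Other genes of the liver zones were set beside the 10. Of 18 other pericentral hepatocyte genes, 17 were called lower on the cΔex3 arrays by limma, with a median of −7.75, and 0 were called higher. Without adjustment of the p-values, 18 were lower and 0 higher. Gulo, a vitamin C synthesis enzyme, fell by 8.75 ± 0.43 (SE; limma, adjusted p = 1.73e-05), and Cyp2c37, a cytochrome P450, fell by 7.93 ± 0.39 (SE; limma, adjusted p = 1.73e-05). Lhpp, a phosphatase, fell by 3.55. Cyp7a1, the rate-limiting enzyme of bile acid synthesis, was above background on 0 of 4 cΔex3 arrays and at least 283-fold lower there. Of 18 periportal genes, which mark the opposite end of the lobule, 16 were called lower by limma, with a median of −6.77, and 0 higher, likewise 0 without adjustment. Among them were the urea cycle genes Ass1, which fell by 7.25 ± 0.27 (SE; limma, adjusted p = 9.06e-06), and Arg1, which fell by 8.69. G6pc, the last enzyme of glucose release, fell by 7.31 and the aldehyde dehydrogenase gene Aldh1b1 fell by 6.31. Genes of both zones and hepatocyte markers such as Vtn (−7.13), Apoa2 (−6.31), Tat (−6.77) and Apoa1 (−10.56) were lower together. Of the 10 genes, Lect2 alone had a difference beyond the medians of these lists.

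**Figure D4:**
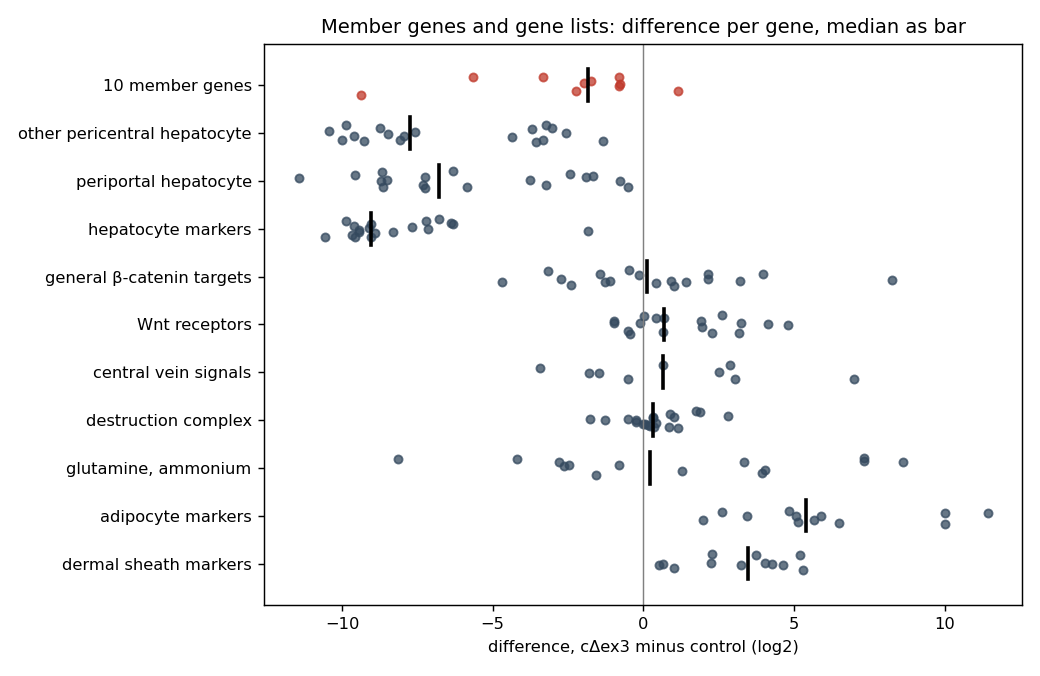
Difference between cΔex3 and control arrays (horizontal axis, log2) of the 10 genes, in red, and of the tested genes of 10 lists, 1 point per gene, with the median as a bar. Both zones of hepatocyte genes and the hepatocyte markers lie left of 0 with medians of −7.75, −6.77 and −9.03, adipocyte and dermal sheath markers to the right, and the other lists have medians between 0.12 and 0.67.

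In the rest of the pathway, genes were called in both directions, as over all genes, where 24% were called higher and 29% lower. Of 18 tested general β-catenin targets of 21 listed, 5 were called higher and 6 lower (limma), with a median of 0.12. Apcdd1, a membrane Wnt inhibitor, was above background on 4 of 4 cΔex3 arrays and 0 of 3 control arrays, at least 75.5-fold higher (limma, adjusted p = 1.28e-05 for the fitted difference), and Twist1, a mesenchymal transcription factor, rose by 3.97. Nkd2, an antagonist that binds Dishevelled, fell by 2.74 at its brightest probe, though the mean of its probes gave 0.18. The secreted inhibitor Dkk4 fell by 4.68 and was above background on 1 of 4 cΔex3 arrays.

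Of 17 tested Wnt receptors and co-receptors of 18 listed, 9 were called higher and 2 lower (limma; median 0.67). Fzd2, a frizzled receptor, rose by 4.78 ± 0.18 (SE; limma, adjusted p = 9.06e-06), and Fzd6 and Fzd1 rose by 2.28 and 1.92. Ror2, a receptor for non-canonical Wnt signals, rose by 4.14 and was above background on 1 of 3 control arrays. Of 9 tested central vein signals of 10 listed, 4 were called higher and 3 lower (median 0.64). Wls, which carries Wnt proteins to the cell surface, rose by 3.05 ± 0.19 (SE; limma, adjusted p = 3.93e-05), Rspo1, an R-spondin, by 7.0, and Thbd, a thrombin receptor of endothelium, by 2.87. Wnt9b, a ligand of central vein endothelium, fell by 1.48. Of 20 genes of the destruction complex and nuclear partners, 7 were called higher and 3 lower (median 0.31). Tcf7l1, a TCF factor, rose by 1.88, Csnk1e, a casein kinase, by 1.74, and Dvl3, a Dishevelled protein, fell by 1.78. Pygo1, a nuclear partner, was above background on 0 of 3 control arrays and at least 2.07-fold higher on the cΔex3 arrays.

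Around Glul and Rhbg, 6 of 14 tested genes of glutamine and ammonium handling were called higher and 7 lower, of 15 listed (limma; median 0.23). Slc1a5, a glutamine transporter, rose by 7.30 ± 0.39 (SE; limma, adjusted p = 2.24e-05) and the glutamate transporter Slc1a3 by 7.31. Slc38a3, a glutamine transporter of hepatocytes, fell by 8.14 ± 0.49 (SE; limma, adjusted p = 3.45e-05). Of 11 tested family relatives of Tbx3 and Sp5, of 12 listed, 4 were called higher and 4 lower (median 0.32), beside 24% and 29% of all genes, and 2 were called lower without control array 1 or 2 or cΔex3 array 2, 3 or 4. Tbx18 and Tbx4 were above background on 0 of 3 control arrays and at least 9.33-fold and 4.01-fold higher on the cΔex3 arrays. Tbx2, the closest relative of Tbx3, rose by 2.57 and Sp7, a bone factor, fell by 0.99.

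Markers of other cells of skin and liver were counted beside all genes, of which 24% were called higher and 29% lower. Of those tested, 3 of 11 dermal papilla genes were called higher and 3 lower (limma, median −0.70). For follicle epithelium it was 2 of 9 higher and 2 lower (0.47). For endothelium it was 7 of 10 higher and 1 lower (1.39), and for macrophages 1 of 10 higher and 3 lower (−0.07). Of the genes of the sort, Alpl, which encodes alkaline phosphatase, differed by −1.27 ± 0.98 (SE; limma, adjusted p = 0.308) and Itga8 by −0.77 ± 0.61 (SE; limma, adjusted p = 0.323).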

How the data were processed

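RNA of 7 samples was read on 1 array each, on 1 slide in 1 scan. The software was Agilent Feature Extraction 10.7.1.1, per the file headers, and the deposited processed signal is an intensity after background subtraction and spatial detrending. The authors' series values are log2 values whose making is not stated. Their column medians lie between 7.407 and 7.413, their background offset is unknown, and they served as an alternative only. The deposited files also mark each spot (other values, 0 or 1) as an outlier or as above background. File names and headers disagreed on the slide number for 7 of 7 arrays and on the position for 4, so that samples were taken from the deposit's record.

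The value used was log2 of processed signal over the 75th percentile of non-control spots, without outliers and averaged over the spots of each of 55681 probes. Of these, 28026 were named by accession through a RefSeq table (GRCm38.p6) and 27655 were not. A probe was tested if above background on at least 3 of 7 arrays, and the brightest probe stood for a gene. The comparison used limma 3.58.1 in R 4.3.3 (lmFit with eBayes, two-sided, no covariate), and p-values were adjusted by Benjamini-Hochberg over 18031 genes, with a threshold of 0.05. A gene above background on no array of a group has a bound against the lowest signal above background on each array. Per the labels the samples are biological replicates.

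The 10 genes, all 15 lists and the further 8 epithelial genes were chosen with earlier results of these data known. The rule names the 4 tested genes of a list with the smallest p, the genes of the sort and allele, and the 3 nearest profiles to Glul, Lgr5 and Axin2. Of the genes so chosen, a few are not reported here. Marker lists other than that of hepatocytes are given as counts, and Cyp7a1, Col11a1, Prom1 and the nearest profiles to Rnf43 and Tbx3 were named after their values were seen. Simulated data were used to test the fit. In all, 17 alternatives were tried.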

Additional observations from a re-analysis of the deposited data

How the results depend on the processing

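Over 17 alternatives, the median difference of the 10 genes stayed below 0. It ranged from −2.04 to −1.28 with each array left out in turn. It was −1.12 over arrays of 1 mouse only and −1.93 with the replicate block. Deviations from the group means correlated at −0.00915, −0.00106 and 0.0176 between arrays of the same number. The groups were so unlike in their transcripts that this cannot decide whether the numbers pair the arrays. Against 9568 genes called in all, 9472 were called with the replicate block, 7925 with slide row, as in the headers, as a block, 6737 over arrays of 1 mouse and 7288 to 10490 with each array left out. Differences that turned sign were those of Glul (0.0079 with quantile normalisation and 0.051 in the authors' deposited series values), Tbx3 (0.25 over arrays of 1 mouse), Nkd2 (0.18 with the mean of its probes), Itga8 (0.39 over arrays of 1 mouse) and Ctnnb1 (0.46, 0.52, 0.018 and 0.52 with quantile normalisation, the authors' deposited series values, arrays of 1 mouse and normexp). The cause was not tested. Tcf7l1 over arrays of 1 mouse (1.79) and Csnk1e with the mean of its probes (0.74) did not pass the threshold, while Alpl passed it without cΔex3 array 4 and with the replicate block (−2.20 in both). Of 674 comparisons of 40 genes that the naming rule chose outside the 10, 664 kept direction and side of the threshold. Of the counts per list, 458 stayed within 1.5 times and 52 did not. Genes called lower numbered 1 among Wnt receptors without control array 1 or 2 or cΔex3 array 1 or 2, 1 in the destruction complex without any of these or cΔex3 array 3, 2 among relatives of Tbx3 and Sp5 without control array 1 or 2 or cΔex3 array 2, 3 or 4, and 1 in follicle epithelium without any 1 array other than cΔex3 array 4. Genes called higher numbered 3 and 4 in endothelium without control array 1 and 2, 5 in dermal papilla without cΔex3 array 3, and 2 in macrophages without cΔex3 array 4; without any other array the 1 macrophage gene lost its call. The destruction complex had 11 or 12 called higher with quantile normalisation, normexp or the authors' deposited series values. The planned normexp correction on mean spot intensity could not be run on the columns given here. Normexp on median intensity, followed by quantile normalisation, was chosen after seeing the data. Dim signal limits Lgr5, not above background on cΔex3 arrays 2 and 3, and Znrf3.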
